A study of Mus musculus with 42 samples.

Results

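The cell cycle and DNA replication genes are a group of 37 genes, chosen by name from a list of textbook regulators and machinery of the cell division cycle, out of 37310 genes in the count table. The list held 8 cyclins and cyclin-dependent kinases of G1 phase, 3 genes of the E2F and RB switch, 8 genes of the replication fork, 3 genes of nucleotide synthesis, 4 genes of S and M phase (cyclins A2, B1 and B2 and their kinase Cdk1) and 11 genes of mitosis. All 37 passed the filter on low counts, as did 11624 genes in all. The rule used no measured value, but the list was chosen with earlier results of these data known.

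RNA was sequenced from bone-marrow-derived macrophages (BMDM), grown from marrow of C57BL/6J background mice in medium conditioned by L929 cells, which supplies macrophage colony-stimulating factor. The libraries labelled KO came from mice in which a floxed Irf5 gene is deleted by a Cre recombinase expressed from the myeloid Lyz2 locus (LysM-Cre), and those labelled WT from mice with intact Irf5. Cells of each label were collected untreated at 0 h (Control 0h), 2 h and 24 h, after the saturated fatty acid palmitate for 2 h and 24 h, and after lipopolysaccharide (LPS), the bacterial ligand of TLR4, for 2 h and 24 h. This gave 14 groups of 3 libraries, in which library numbers name only the column order, and nothing states that the libraries of a group came from separate cultures or animals, so a p-value measures the spread between these libraries. The genes stand in the table under Ensembl identifiers, for example Mki67 at chr7:135689784-135716361 and Ccnd1 at chr7:144929931-144939925 on GRCm38.

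A cell commits to division in G1, when D-type cyclins with CDK4 or CDK6 and E-type cyclins with CDK2 phosphorylate RB and release E2F transcription factors. E2F switches on the genes of the replication fork and of nucleotide synthesis, and a later wave, driven from promoters that hold the CHR element and CCAAT boxes, supplies cyclin B, CDK1 and the kinases and motors of mitosis. Macrophages grown in colony-stimulating factor keep cycling in part, and LPS is known to arrest them. In bulk RNA, fewer dividing cells and less RNA per dividing cell cannot be told apart.

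Of the promoters of these genes, 7 are printed here for the mitotic and replication genes on which the results turn. Each line runs 5′ to 3′ from 250 bases before to 50 bases after the start of the gene, from RefSeq on GRCm38.p6, and capitals mark matches on either strand to an E2F word (any of TTCCCGC or else TTGGCGC or else TTCGCGC or else TTGCCGC), the CHR word TTTGAA, the word CCAAT and the kappaB consensus.
Mki67: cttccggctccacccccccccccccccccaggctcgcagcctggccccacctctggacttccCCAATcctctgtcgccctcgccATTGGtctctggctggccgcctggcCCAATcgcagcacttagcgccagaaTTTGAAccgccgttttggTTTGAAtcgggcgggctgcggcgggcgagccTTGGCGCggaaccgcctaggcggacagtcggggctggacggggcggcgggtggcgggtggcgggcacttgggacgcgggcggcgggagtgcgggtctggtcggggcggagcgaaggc
Top2a: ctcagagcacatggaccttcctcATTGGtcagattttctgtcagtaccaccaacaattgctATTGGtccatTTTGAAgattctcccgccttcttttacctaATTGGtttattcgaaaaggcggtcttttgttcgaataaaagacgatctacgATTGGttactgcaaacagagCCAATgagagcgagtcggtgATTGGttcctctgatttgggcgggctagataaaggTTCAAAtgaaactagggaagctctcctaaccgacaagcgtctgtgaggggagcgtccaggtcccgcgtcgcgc
Kif23: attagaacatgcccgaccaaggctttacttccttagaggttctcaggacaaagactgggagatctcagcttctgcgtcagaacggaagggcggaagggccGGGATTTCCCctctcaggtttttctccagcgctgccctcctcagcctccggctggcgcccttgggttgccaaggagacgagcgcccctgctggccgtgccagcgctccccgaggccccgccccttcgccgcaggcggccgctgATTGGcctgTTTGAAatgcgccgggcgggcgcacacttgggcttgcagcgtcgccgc
Plk1: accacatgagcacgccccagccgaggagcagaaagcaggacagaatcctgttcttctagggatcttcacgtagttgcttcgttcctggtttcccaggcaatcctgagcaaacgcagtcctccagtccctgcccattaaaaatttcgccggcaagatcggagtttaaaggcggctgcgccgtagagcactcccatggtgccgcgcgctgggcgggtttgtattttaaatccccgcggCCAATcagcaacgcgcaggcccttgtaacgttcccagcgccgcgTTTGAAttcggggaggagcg
Ccnb2: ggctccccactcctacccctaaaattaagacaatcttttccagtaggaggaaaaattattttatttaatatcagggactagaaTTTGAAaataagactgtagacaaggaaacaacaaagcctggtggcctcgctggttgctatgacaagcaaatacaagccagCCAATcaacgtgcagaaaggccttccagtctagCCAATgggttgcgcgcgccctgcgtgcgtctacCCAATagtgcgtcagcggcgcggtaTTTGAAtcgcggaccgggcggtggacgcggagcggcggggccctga
Cdk1: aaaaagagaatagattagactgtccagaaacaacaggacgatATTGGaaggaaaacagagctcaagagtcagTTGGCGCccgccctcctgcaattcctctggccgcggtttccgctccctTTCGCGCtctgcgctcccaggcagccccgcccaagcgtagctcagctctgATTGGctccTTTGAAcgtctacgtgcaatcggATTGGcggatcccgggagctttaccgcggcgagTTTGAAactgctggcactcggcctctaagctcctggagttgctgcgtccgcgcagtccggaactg
Mcm5: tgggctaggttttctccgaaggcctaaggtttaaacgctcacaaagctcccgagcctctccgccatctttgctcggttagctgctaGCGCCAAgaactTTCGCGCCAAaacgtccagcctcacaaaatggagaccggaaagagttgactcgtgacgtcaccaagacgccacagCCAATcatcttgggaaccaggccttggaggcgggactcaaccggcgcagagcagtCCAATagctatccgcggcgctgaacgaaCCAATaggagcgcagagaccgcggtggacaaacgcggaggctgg

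These windows lie at chr7:135716330-135716629, minus strand for Mki67, chr11:99024140-99024439, minus strand for Top2a, chr9:61946750-61947049, minus strand for Kif23 and chr7:122159185-122159484, plus strand for Plk1. The window of Ccnb2 is chr9:70421505-70421804, minus strand, that of Cdk1 is chr10:69352863-69353162, minus strand and that of Mcm5 is chr8:75109259-75109558, plus strand. In these lines TTTGAA or its reverse TTCAAA and CCAAT or its reverse ATTGG stand together in the mitotic genes and in Ccnb2 and Cdk1, whereas Mcm5, a helicase subunit, holds E2F words and CCAAT and no TTTGAA. E2F words are not particular to Mcm5, as Cdk1 holds 2 and Mki67 holds 1.

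Over all members, 29 of 37 had a promoter in the table, 31 promoters in all because Ccnd3 and Mcm7 had more than 1, and those of Aurkb, Ccna2, Ccne2, Ccnd1, Ccnd2, Mcm4, Tpx2 and Rb1 were not analysed here. An E2F word was found in 12 of 31 (38.7%), against 9.57% of the 32851 promoters of the same length. TTTGAA was found in 11 of 31 (35.5%) against 17.9%, CCAAT in 24 of 31 (77.4%) against 37.4%, and TTTGAA with CCAAT in 11 of 31 (35.5%) against 6.95%. The kappaB consensus was found in 4 of 31 (12.9%) against 8.46%. E2F words lay in 5 of 8 promoters of the replication fork, 2 of 3 of nucleotide synthesis and 2 of 3 of the S and M phase genes. They lay in 1 of 9 of mitosis and 1 of 6 of the G1 genes. TTTGAA lay in 6 of 9 of mitosis and 2 of 3 of the S and M phase genes. It lay in 2 of 8 of the replication fork and 0 of 6 of the G1 genes. Matches to different motifs overlapped in 3 of 31 promoters (Ccnb1, E2f8 and Mcm7). A match describes the letters and not binding.

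Library depth ran from 2848793 to 7743442 counts (median 5625399), so that 3 counts were worth 0.387 to 1.05 CPM, counts scaled to a common library size, and the lowest count of a member in any library was 2. Levels below are on this scale, with the TMM normalization of edgeR, and tests are edgeR quasi-likelihood tests over all 11624 genes with Benjamini-Hochberg adjustment, called at an adjusted p under 0.05. The targeted gene Irf5 did not show a deletion in the KO label: it ran from 209.5 to 389 CPM in WT and from 267 to 430.5 in KO, with KO minus WT log2 differences of 0.043 to 0.47, called higher in 4 of 7 conditions and lower in 0. Total gene counts cannot show whether reads of the deleted exons are missing. Lyz2, which carries the Cre, was lower in KO in 7 of 7 conditions (log2 difference -1.11 to -0.51). Summed macrophage markers other than Lyz2 (12 genes) were 7272 to 11559 CPM in WT and 6802 to 11088 in KO. Summed neutrophil markers (9 genes) were 95.4 to 529 and 138 to 361 CPM, monocyte markers (3 genes) 1.43 to 22.4 and 3.39 to 27.1, and fibroblast markers (7 genes) 0.380 to 60.1 in WT and 1.16 to 314 in KO.

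LPS for 24 h lowered most of the cell cycle genes in both labels. In WT, 32 of 37 members fell and 3 rose, and in KO 33 fell and 2 rose. Of all genes tested in WT, 19.6% were called higher and 19.9% lower, and in KO 19.9% and 21%. The median log2 change of the members was -0.96 in WT and -0.96 in KO, against -0.01 over all genes in each. The 32 members that fell in WT all fell in KO.

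**Figure D1:**
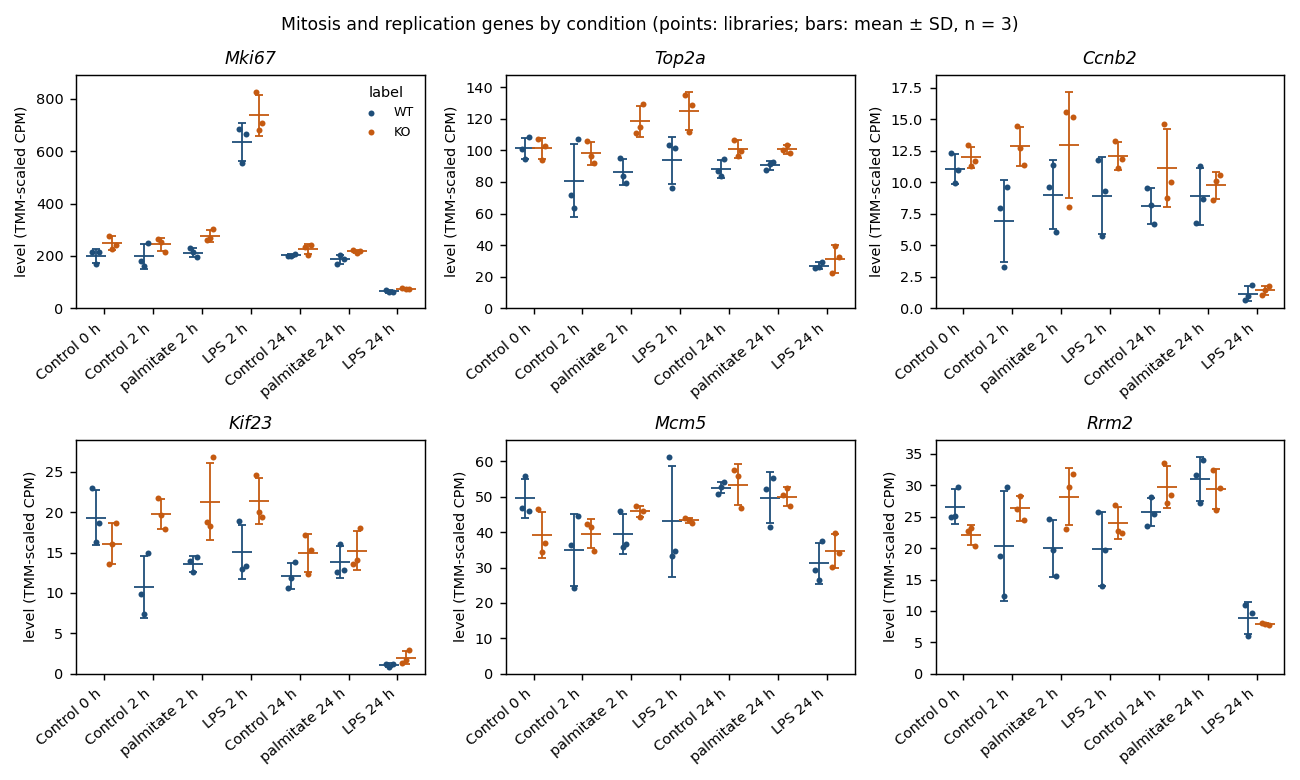
Level in CPM of Mki67, Top2a, Ccnb2, Kif23, Mcm5 and Rrm2 (a linear axis from 0) in every library, by label and condition, with a point for each library and bars for the mean ± SD of 3 libraries. Levels after 24 h of LPS lie below those of Control 24h in both labels, and Mki67 stands above its control after 2 h of LPS.

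By their medians, genes of mitosis and the cyclins of S and M phase fell furthest. On the mitosis list there were 11 of 11 lower in each label (median log2 change -1.70 in WT and -1.77 in KO). Mki67 encodes Ki-67, the chromosome surface protein used as a marker of dividing cells. It was at 199.6, 199 and 207 CPM in the WT Control 24h libraries and at 70.9, 62.4 and 62.6 after LPS, and in KO at 233, 203 and 241 and at 77.2, 74.3 and 73.2. Every LPS library lay below every control library in both labels. The log2 change was -1.63 (SE 0.12, adjusted p = 4.11e-17) in WT, or 3.10-fold lower, and -1.59 (SE 0.11, adjusted p = 4.20e-17) in KO.

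Top2a encodes topoisomerase II alpha, which untangles sister DNA. Its level was 86.7, 83.7 and 94.4 CPM in WT Control 24h and 25.5, 26.1 and 29.4 after LPS. In KO it was 107, 96.2 and 99.4 CPM and 22.2, 39.6 and 32.5 after LPS. Control and LPS libraries did not overlap, with log2 changes of -1.71 (SE 0.14, adjusted p = 9.58e-15) and -1.69 (SE 0.14, adjusted p = 4.08e-15).

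Kif23 encodes a kinesin of the central spindle that is needed for cytokinesis, and it had the largest fall of the 37 in WT. It went from 10.7, 11.8 and 13.8 CPM in WT Control 24h to 1.20, 0.827 and 1.22 after LPS, where its counts were 7, 5 and 8. In KO it went from 17.1, 12.4 and 15.3 CPM to 1.34, 1.68 and 2.93. Its groups did not overlap in either label, and the log2 change was -3.47 (SE 0.31, adjusted p = 1.54e-13) in WT and -2.87 (SE 0.27, adjusted p = 5.30e-13) in KO. For WT and KO in that order, the log2 change was -2.80 (SE 0.34) and -2.09 (SE 0.30) for the mitotic kinase Plk1, -2.30 and -2.13 for the spindle motor Kif11, and -1.35 and -2.36 for Birc5, which encodes survivin. It was -1.73 and -1.44 for the checkpoint kinase Bub1, -1.37 and -1.77 for the kinetochore motor Cenpe, -1.70 and -2.22 for Cdc20, which activates the anaphase-promoting complex, and -1.22 and -1.13 for the spindle assembly factor Tpx2. The smallest fall of the list was that of the kinase Aurkb (-0.89 and -0.80), whose WT groups overlapped.

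The S and M phase cyclins and their kinase numbered 4, all of them lower in each label (median -1.99 and -2.06). Ccnb1, cyclin B1, was at 8.98, 13.2 and 8.16 CPM in WT Control 24h and 1.88, 2.65 and 3.37 after LPS. In KO it was at 12.2, 7.84 and 10.3 CPM and 3.43, 5.42 and 1.02 after LPS. No LPS library reached a control library, and the log2 change was -1.93 (SE 0.32, adjusted p = 1.78e-06) and -1.65 (SE 0.31, adjusted p = 1.63e-05). Its partner kinase Cdk1 was at 26.7, 21.6 and 19.8 CPM in WT Control 24h against 7.53, 6.78 and 10.3 after LPS, and in KO at 31.3, 20.2 and 20.5 against 11.03, 8.96 and 11.6. The Cdk1 groups were also apart, by -1.44 (SE 0.20, adjusted p = 5.35e-08) and -1.15 (SE 0.19, adjusted p = 2.09e-06). Ccnb2, cyclin B2, had log2 changes of -2.73 and -2.92 and Ccna2, cyclin A2 of S phase, of -2.05 and -2.47.

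On the replication fork list 8 of 8 were lower in each label, at smaller medians of -0.70 and -0.68. Their log2 changes ran from -0.96 (Cdc45) to -0.39 (Mcm3) in WT and from -0.96 (Cdc45) to -0.30 (Mcm3) in KO. The other helicase subunits lay between, with -0.61 and -0.41 for Mcm2, -0.57 and -0.58 for Mcm4, -0.64 and -0.74 for Mcm6 and -0.77 and -0.85 for Mcm7. Mcm5, a subunit of the MCM helicase, was at 50.8, 52.8 and 54.1 CPM in WT Control 24h and 29.4, 26.5 and 37.5 after LPS. In KO it was at 57.6, 55.8 and 46.7 and 30.3, 39.8 and 34.1. The groups were apart in both labels, with log2 changes of -0.75 (SE 0.16, adjusted p = 0.000127) and -0.62 (SE 0.16, adjusted p = 0.00127). Pcna, the sliding clamp of the polymerase, was at 188, 199 and 205 CPM in WT Control 24h and 105, 98.8 and 112 after LPS, and in KO at 201, 204 and 195 and 102, 110.4 and 104. Pcna was also lower in every LPS library, by -0.91 (SE 0.083, adjusted p = 2.58e-13) and -0.92 (SE 0.082, adjusted p = 1.21e-13).

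The 3 genes of nucleotide synthesis fell in each label (median -1.27 and -1.55). Rrm2, the subunit that limits ribonucleotide reductase, was at 23.6, 28.1 and 25.5 CPM in WT Control 24h and 10.95, 5.96 and 9.65 after LPS. In KO it was at 33.5, 27.2 and 28.5 and 8.05, 7.84 and 7.76. These groups did not overlap, with log2 changes of -1.55 (SE 0.21, adjusted p = 3.46e-08) and -1.90 (SE 0.21, adjusted p = 1.48e-10). The log2 changes of Tyms, thymidylate synthase, were -1.27 and -1.55, and those of Rrm1, the large reductase subunit, -0.65 and -0.80.

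**Figure D2:**
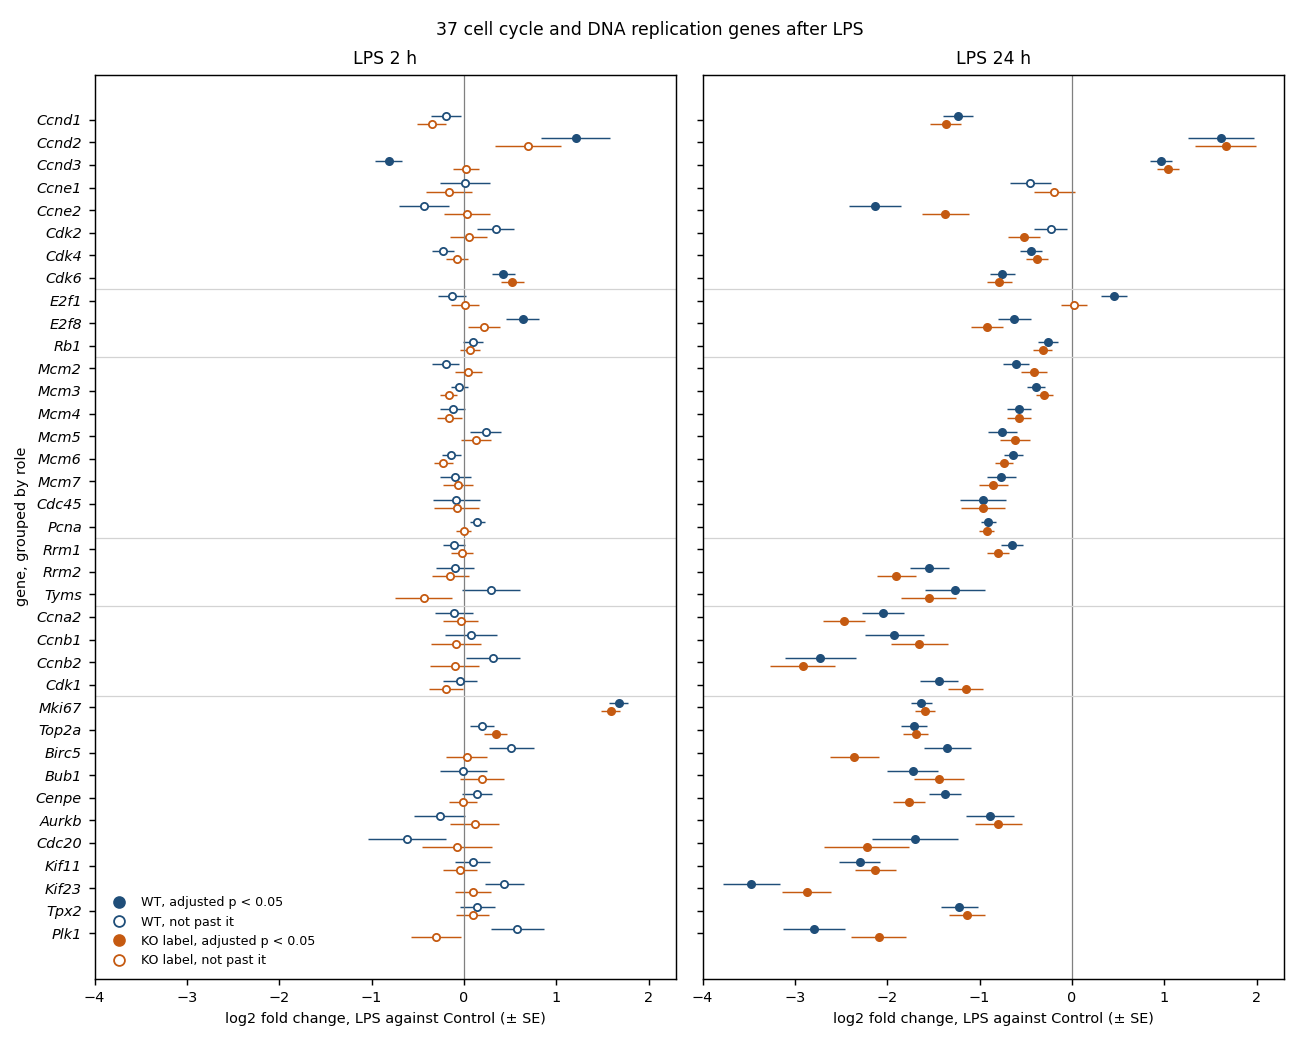
Log2 fold change of each of the 37 members after LPS against Control of the same time, at 2 h and 24 h and in WT and KO, with bars of 1 SE and filled points for an adjusted p under 0.05. At 24 h only the D cyclins Ccnd2 and Ccnd3 and, in WT, E2f1 were called higher, and at 2 h most members lie near 0 while Mki67 is raised.

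The G1 genes split. Of 8, 2 rose and 4 fell in WT, and 2 rose and 5 fell in KO. The cyclin Ccnd3 was at 36.5, 35.997 and 31.6 CPM in WT Control 24h and 60.1, 71.3 and 70.7 after LPS, and in KO at 34.8, 35.9 and 30.4 and 64.7, 72.8 and 70.3. All LPS libraries stood above all controls, by a log2 change of 0.97 (SE 0.12, adjusted p = 2.05e-09) and 1.04 (SE 0.12, adjusted p = 2.17e-10). Ccnd2 was at 4.49, 3.43 and 3.79 CPM in WT Control 24h and 11.98, 10.1 and 13.3 after LPS, and in KO at 7.45, 5.29 and 4.39 and 17.1, 20.9 and 15.1. It rose 3.06-fold in WT and 3.17-fold in KO without overlap, with log2 changes of 1.61 (SE 0.35, adjusted p = 0.000195) and 1.66 (SE 0.33, adjusted p = 3.91e-05).

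Ccnd1, the D cyclin that mitogens induce, moved the other way. It was at 104, 91.9 and 104 CPM in WT Control 24h and 48.3, 29.5 and 49.3 after LPS, and in KO at 102, 99.7 and 88.3 and 30.9, 42.9 and 38.7. The groups were apart in both labels, with log2 changes of -1.23 (SE 0.17, adjusted p = 1.81e-08) and -1.37 (SE 0.17, adjusted p = 1.73e-09). The E cyclin Ccne2 fell (log2 -2.13 and -1.37), while Ccne1 did not pass the test (-0.45, SE 0.22, adjusted p = 0.101, and -0.19, SE 0.22, adjusted p = 0.536) and its groups overlapped. Ccne1 was at 11.5, 10.1 and 13.99 CPM in WT Control 24h and 11.3, 7.45 and 7.50 after LPS, and in KO at 9.44, 9.48 and 11.04 and 11.03, 5.04 and 9.96.

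The kinases of the D cyclins fell. Cdk6 was at 40.4, 29.997 and 35.5 CPM in WT Control 24h and 22.2, 17.5 and 22.4 after LPS, and in KO at 32.03, 37.7 and 38.9 and 20.6, 17.9 and 24.6, without overlap. Its log2 change was -0.75 (SE 0.14, adjusted p = 9.36e-06) and -0.79 (SE 0.13, adjusted p = 3.06e-06). Cdk4 was at 38.2, 53.1 and 39.5 CPM in WT Control 24h and 34.7, 25.98 and 35.8 after LPS, and in KO at 38.2, 46.1 and 42.6 and 32.5, 32.5 and 32.9, with log2 changes of -0.45 (SE 0.12) in WT and -0.38 (SE 0.12) in KO. The call of Cdk4 was lost without Control 24h library 2 in either label. Cdk2, the kinase of the E cyclins, passed the test in KO (-0.52, SE 0.17, adjusted p = 0.0120, lost without KO Control 24h library 2) and not in WT (-0.23, SE 0.18, adjusted p = 0.330), and the difference between labels did not pass (-0.29, SE 0.25, adjusted p = 0.974).

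**Figure D3:**
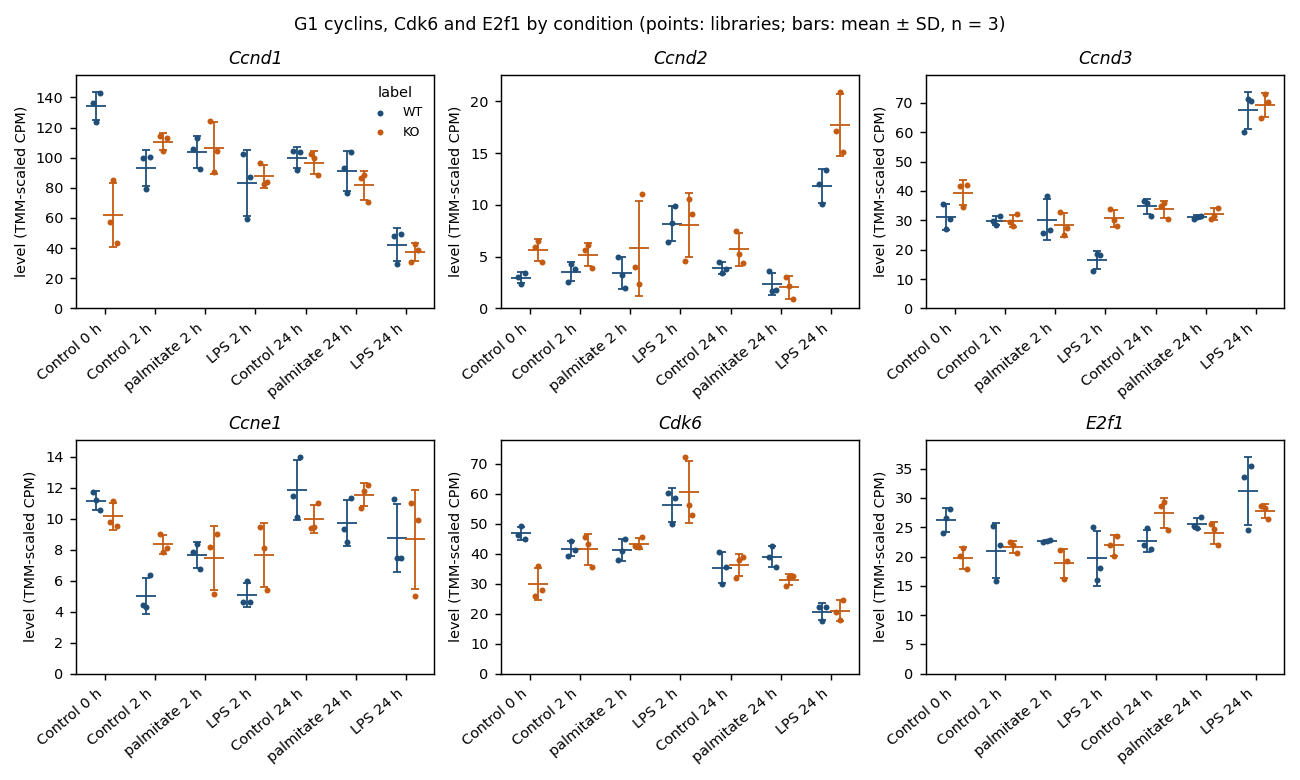
Level in CPM of Ccnd1, Ccnd2, Ccnd3, Ccne1, Cdk6 and E2f1 (a linear axis from 0), by label and condition, with a point for each library and bars for the mean ± SD of 3 libraries. Ccnd3 and Ccnd2 are highest after 24 h of LPS, where Ccnd1 is lowest.

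In the E2F and RB switch, the activator E2f1 was at 21.9, 24.9 and 21.3 CPM in WT Control 24h and 33.5, 24.5 and 35.4 after LPS, and in KO at 28.6, 29.3 and 24.5 and 28.6, 28.2 and 26.4. The groups overlapped in both labels. It was called higher in WT (0.46, SE 0.14, adjusted p = 0.00757), a call lost without LPS 24h library 3, and not in KO (0.020, SE 0.14, adjusted p = 0.928). The difference between labels did not pass (-0.44, SE 0.20, adjusted p = 0.924). E2f8, a repressor E2F, was at 18.2, 26.4 and 20.4 CPM in WT Control 24h and 17.5, 12.6 and 12.7 after LPS, and in KO at 31.5, 24.1 and 25.8 and 15.4, 15.1 and 12.2. It fell without overlap (log2 -0.62, SE 0.18, and -0.92, SE 0.17), the WT call being lost without Control 24h library 2. Rb1, which holds E2F in check, was at 61.2, 55.02 and 61.5 CPM in WT Control 24h and 51.7, 41.7 and 54.5 after LPS, and in KO at 52.1, 49.8 and 58.2 and 37.4, 44.6 and 46.9. Its groups were apart, with changes of -0.26 (SE 0.11, adjusted p = 0.0440) and -0.32 (SE 0.11, adjusted p = 0.0141) and calls lost in 4 of 6 fits without 1 library in WT and 2 of 6 in KO.

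Of the 35 calls in each label, 29 were kept in every fit without 1 library. The remaining losses were Aurkb and Cdc20 in WT without Control 24h library 3, and in KO Mcm2 without Control 24h library 2 or LPS 24h library 1, Mcm3 without LPS 24h library 1 and Aurkb without LPS 24h library 3. Summed monocyte markers were higher after 24 h of LPS, at 18 to 22.4 CPM against 3.26 to 5.90 in Control 24h of WT and 19.4 to 27.1 against 7.45 to 8.78 in KO. Summed neutrophil markers were 344 to 529 against 165 to 171 in WT. In KO their ranges overlapped, at 274 to 361 against 241 to 324. The sums do not tell other cells from macrophages that change these genes. The part of either set in the falls was not tested.

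Among other genes of the pathway, 102 were listed, 101 were matched to a gene identifier and 100 were tested. After 24 h of LPS 62 were lower and 3 higher in WT, and 66 lower and 4 higher in KO. Other mitosis genes fell in 44 of 50 and 43 of 50 cases, and other replication genes in 12 of 35 and 15 of 35. In WT the lower genes with the smallest p were Hmmr, a spindle protein (-2.86), Prc1, a bundler of the central spindle (-2.26), and Cenpf, a kinetochore protein (-3.05), and in KO they were the chromokinesin Kif4 (-2.75), Cenpf (-3.07) and Prc1 (-2.08). The higher genes were Pttg1, securin (1.29 and 1.39), Timeless, of the replication fork protection complex (0.57 and 0.82), Cdkn1a (0.76, SE 0.094, and 0.81, SE 0.095) and, in KO, the E2F repressor E2f4 (0.27).

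After 2 h of LPS few members had moved. In WT 4 members rose and 1 fell, where 14% of all genes tested were called higher and 9.1% lower, and in KO 3 rose and 0 fell, where 14.7% and 9.16% were called. The median log2 change of the members was 0.010 in WT and -0.010 in KO. In the KO test 5 members had an unadjusted p under 0.05, and DESeq2 called 2 higher and 0 lower. Without WT Control 2h library 3 the WT count was 8. Here and below, the share of all genes called in such alternative fits is not given. Counts from them do not show whether members moved more than other genes.

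Mki67 led in both labels. It was at 182, 162 and 251 CPM in WT Control 2h and 686, 554 and 667 after LPS, and in KO at 263, 253 and 216 and 826, 680.2 and 706. Every LPS library stood above every control, a rise of 3.196-fold in WT (log2 1.68, SE 0.10, adjusted p = 4.07e-19) and 3.01-fold in KO (log2 1.59, SE 0.10, adjusted p = 1.80e-18). At 24 h the same gene was below its control, as above. On the mitosis list at 2 h, 1 of 11 was called in WT and 2 of 11 in KO, the other being Top2a.

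Top2a was at 106, 96.3 and 91.95 CPM in KO Control 2h and 135, 111 and 128 after LPS. These groups did not overlap, but the rise of 0.34 (SE 0.12, adjusted p = 0.0352) was lost in 4 of 6 fits without 1 library and with DESeq2. In WT the change of Top2a was 0.20 (SE 0.13, adjusted p = 0.305). Cdk6 was at 39.3, 44.3 and 41.2 CPM in WT Control 2h and 60.1, 49.7 and 58.7 after LPS, and in KO at 45.6, 43.1 and 35.6 and 72.1, 56.3 and 52.98. It rose without overlap by 0.42 (SE 0.12, adjusted p = 0.00786) and 0.52 (SE 0.12, adjusted p = 0.000894), the WT call being lost without LPS 2h library 3.

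E2f8 was at 14.5, 12.1 and 18.8 CPM in WT Control 2h and 26.1, 19.7 and 25.6 after LPS. These libraries were apart, by 0.64 (SE 0.18, adjusted p = 0.00576), a call lost without Control 2h library 2, and in KO the change was 0.22 (SE 0.17, adjusted p = 0.417). Ccnd2 was at 2.52, 4.30 and 3.85 CPM in WT Control 2h and 6.44, 8.22 and 9.84 after LPS, a rise of 1.21 (SE 0.37, adjusted p = 0.0130) that was lost without Control 2h library 1 or LPS 2h library 3. In KO the change of Ccnd2 was 0.69 (SE 0.36, adjusted p = 0.173).

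Ccnd3 was the member that fell in WT at 2 h. It was at 29.8, 28.5 and 31.4 CPM in WT Control 2h and 12.9, 18.5 and 18.2 after LPS, and in KO at 29.3, 28.1 and 32.1 and 33.8, 29.99 and 28.1. The WT groups were apart and the KO groups overlapped, with log2 changes of -0.82 (SE 0.15, adjusted p = 1.34e-05) and 0.022 (SE 0.14, adjusted p = 0.938). KO exceeded WT in every LPS 2h library (0.83, SE 0.15, adjusted p = 0.00144), a call kept in every fit without 1 library and lost in a fit of only the 6 libraries compared, where the log2 difference was 0.85. The difference between the labels in the LPS change, 0.84 (SE 0.20, adjusted p = 0.257), did not pass.

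Among other pathway genes at 2 h, 3 rose and 11 fell in WT and 1 rose and 9 fell in KO. Cdkn1a, which encodes the CDK inhibitor p21, was at 105, 96.5 and 105 CPM in WT Control 2h and 406, 471 and 425 after LPS, and in KO at 106, 88.6 and 94.3 and 431, 454 and 449. All LPS libraries were higher, by 2.09 (SE 0.090, adjusted p = 1.77e-25) and 2.21 (SE 0.091, adjusted p = 2.40e-26). The second higher gene in WT by p was the spindle protein Ckap2l (0.98, SE 0.24, adjusted p = 0.00138). The lower genes with the smallest p were the same in both labels, the activator E2f2 (-1.61 and -1.23) and the replication licensing factor Cdt1 (-0.63 and -0.96). Of 6 CDK inhibitors matched to a gene identifier 5 were tested, and Cdkn2d, also listed, had no match. Besides Cdkn1a, Cdkn2c (p18) fell at 24 h (-1.89 and -1.85), Cdkn1c (p57) fell at 24 h in KO (-2.20), and Cdkn1b (p27) fell in WT at 2 h (-0.39) and in KO at 24 h (-0.36). Cdkn2b passed in none of the 4 LPS tests.

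Palmitate changed no member by the edgeR test. Of all genes tested, 0.103% were called higher and 0.172% lower at 2 h and 0.671% and 0.181% at 24 h in WT, and in KO 0.0774% and 0.0344% at 2 h and 0.637% and 0.241% at 24 h. Counts of members with an unadjusted p under 0.05 were 2 and 1 in WT and 1 and 3 in KO, at 2 h and 24 h, and DESeq2 called 0, 0, 0 and 1 in the same order. The median log2 change of the members was 0.091 and 0.005 in WT and 0.086 and -0.076 in KO. Ccnd2 was the member that DESeq2 called: it was at 7.45, 5.29 and 4.39 CPM in KO Control 24h and 3.04, 2.17 and 0.872 after palmitate. These libraries did not overlap, and the edgeR value was -1.49 (SE 0.42, adjusted p = 0.0839). Mki67 was at 168, 203 and 188 CPM in WT after 24 h of palmitate and at 222, 211 and 219 in KO, overlapping the controls given above.

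Time without treatment moved few members. Between Control 0h and Control 2h, averaged over both labels, 4 fell and 0 rose, where 9.35% of all genes tested were called higher and 7.36% lower, and 10 members had an unadjusted p under 0.05. Ccne1 was at 11.8, 11.2 and 10.6 CPM in WT Control 0h and 4.45, 4.30 and 6.37 at 2 h, and in KO at 9.81, 11.1 and 9.54 and 9.05, 7.88 and 8.14. All 2 h libraries lay below all 0 h libraries (-0.71, SE 0.16, adjusted p = 0.00101). Cdk2 was at 19.7, 16.1 and 17.3 CPM in WT Control 0h and 12.8, 16.05 and 10.4 at 2 h, and in KO at 22.2, 20.03 and 26.99 and 16.1, 16.1 and 13.2, with overlap and a mean change of -0.52 (SE 0.13, adjusted p = 0.00231). Aurkb (-0.63) and Plk1 (-0.63, lost without WT Control 2h library 2) were the others. The WT Control 2h libraries stood apart from each other: library 2 was the lowest of the 3 for 31 of 37 members and library 3 the highest for 31. Without library 3 the count of members called was 9.

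Between Control 0h and Control 24h 1 member rose and 0 fell, where 7.9% of all genes were called higher and 8.62% lower, 6 members had an unadjusted p under 0.05 and DESeq2 called 2. The count was 3 without KO Control 0h library 1 and 0 without KO Control 0h library 3. This was Mcm6, at 135, 141 and 143 CPM in WT and 119, 110.4 and 97.9 in KO at 0 h, and at 145, 145 and 145 and 155, 143 and 138 at 24 h. Within each label the 24 h libraries lay above the 0 h libraries, and the mean change of 0.23 (SE 0.070, adjusted p = 0.0147) was lost without KO Control 0h library 3.

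**Figure D4:**
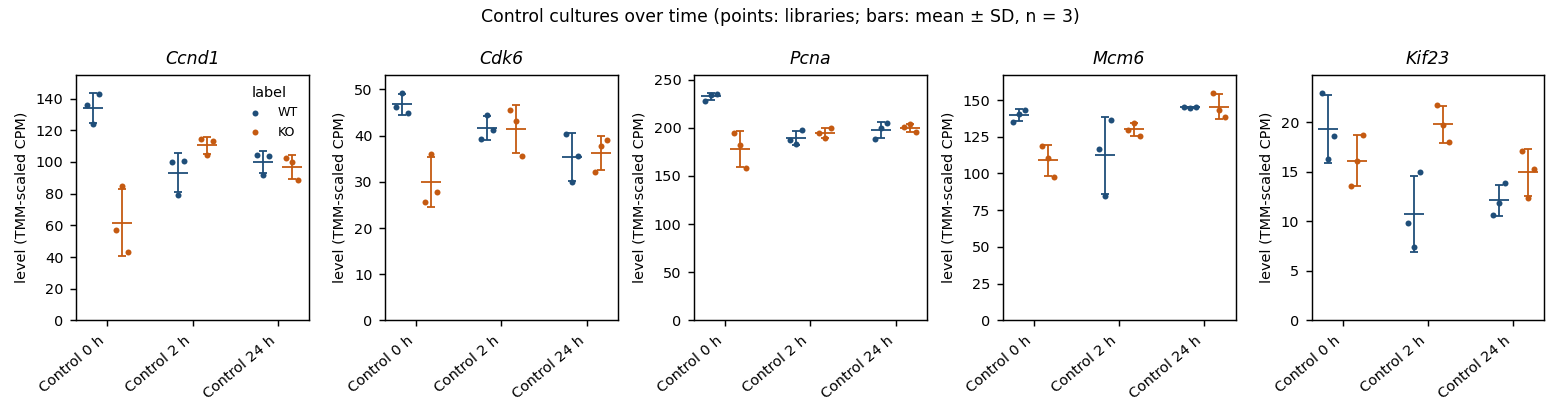
Level in CPM of Ccnd1, Cdk6, Pcna, Mcm6 and Kif23 in the untreated groups at 0, 2 and 24 h (a linear axis from 0), with a point for each library and bars for the mean ± SD of 3 libraries. The KO libraries of Ccnd1, Cdk6 and Pcna lie below the WT libraries at 0 h, and the labels are close at 24 h.

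Between the labels, most calls were made in the untreated cells at 0 h. KO was lower than WT in 7 members and higher in 1, where 6.06% of all genes tested were called lower and 6.4% higher, and the median log2 difference of the members was -0.15. Ccnd1 was at 136, 124 and 143 CPM in WT and 57.1, 84.9 and 43.4 in KO. Every KO library was lower, by 2.16-fold on average (log2 -1.11, SE 0.16, adjusted p = 1.48e-06). Cdk6 was at 46.1, 49.3 and 44.8 CPM in WT and 25.7, 35.96 and 27.9 in KO, apart by -0.64 (SE 0.13, adjusted p = 0.000373). Pcna was at 228, 234 and 235 CPM in WT and 194, 182 and 158 in KO, apart by -0.39 (SE 0.079, adjusted p = 0.000588).

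These 3 calls were kept in every fit without 1 library, and the other 5 were not. Ccne2 (-0.72), E2f1 (-0.41), Mcm4 (-0.38) and Mcm6 (-0.36) were lower in KO, and Mki67 was higher, at 277, 227 and 243 CPM against 215, 171 and 215 in WT (0.31, SE 0.10, adjusted p = 0.0377). The count of 8 fell to 4 without WT library 3, to 5 without KO library 1 and to 3 without KO library 3. Summed fibroblast markers were 49.7, 43.1 and 70.7 CPM in these KO libraries and 0.905, 1.42 and 1.19 in WT, neutrophil markers 164 to 174 against 121 to 134, and their part in the differences was not tested.

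At the later control times Ccnd1 was not lower in KO. In Control 2h, Ccnd1 was at 99.9, 79.2 and 101 CPM in WT and 114, 104 and 113 in KO, and in Control 24h at 104, 91.9 and 104 and 102, 99.7 and 88.3. At 2 h every KO library was above every WT library without passing the test (0.25, SE 0.15, adjusted p = 0.629), and at 24 h the labels overlapped (-0.049, SE 0.16, adjusted p = 1). In a contrast added after seeing the data, the change from 0 h to 2 h differed between labels for 5 members, all more positive in KO, where 4.77% of all genes were called. The count was 2 without KO Control 0h library 3 or WT Control 2h library 2, and 8 without WT Control 2h library 3. For Ccnd1 this difference was 1.36 (SE 0.22, adjusted p = 5.87e-05). From 0 h to 24 h it was called for 3 members, where 1.83% of all genes were called, and for 0 without KO Control 0h library 3.

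In the other conditions few members passed the test between labels. In Control 2h 1 was called, where 0.49% of all genes were called. Kif23 was at 9.87, 7.45 and 14.97 CPM in WT and 21.7, 19.7 and 17.98 in KO. The labels did not overlap (0.86, SE 0.20, adjusted p = 0.0281), but the call was lost in 4 of 6 fits without 1 library (WT Control 2h library 1 or 2, KO Control 2h library 1 or 2), and the count rose to 6 without WT Control 2h library 3. Summed fibroblast markers were 119, 78.4 and 73.3 CPM in these KO libraries and 2.52, 60.1 and 2.82 in WT, and their part in it was not tested. After 2 h of LPS 1 was called (0.465% of all genes), which was Ccnd3 as above. In Control 2h 12 of 37 members and 1172 of 11624 genes had an unadjusted p under 0.05, and after LPS 8 and 1342. Above 0 lay 34 members and 5628 genes in Control 2h, and 31 and 5938 after LPS.

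After palmitate for 2 h edgeR called 0 members (0.146% of all genes), and DESeq2 called 0. An unadjusted p under 0.05 was found for 16 of 37 members and 1032 of 11624 genes, and 33 of 37 members and 5696 of 11624 genes lay above 0. The part of the fibroblast markers in this was not tested. In Control 24h 0 were called (0.12% of all genes, 2 at an unadjusted p under 0.05, 0 by DESeq2), after palmitate for 24 h 0 (0.0688%, 2, 0 by DESeq2) and after LPS for 24 h 0 (0.146%, 3, 0 by DESeq2). The response to a treatment differed between labels for 0 members by edgeR: after LPS 0% of all genes were called at 2 h and 0.0086% at 24 h, and after palmitate 0% at each time. In these 4 tests 2 (LPS 2 h), 1 (palmitate 2 h), 2 (LPS 24 h) and 2 (palmitate 24 h) members had an unadjusted p under 0.05, and DESeq2 called 0 in each.

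**Figure D5:**
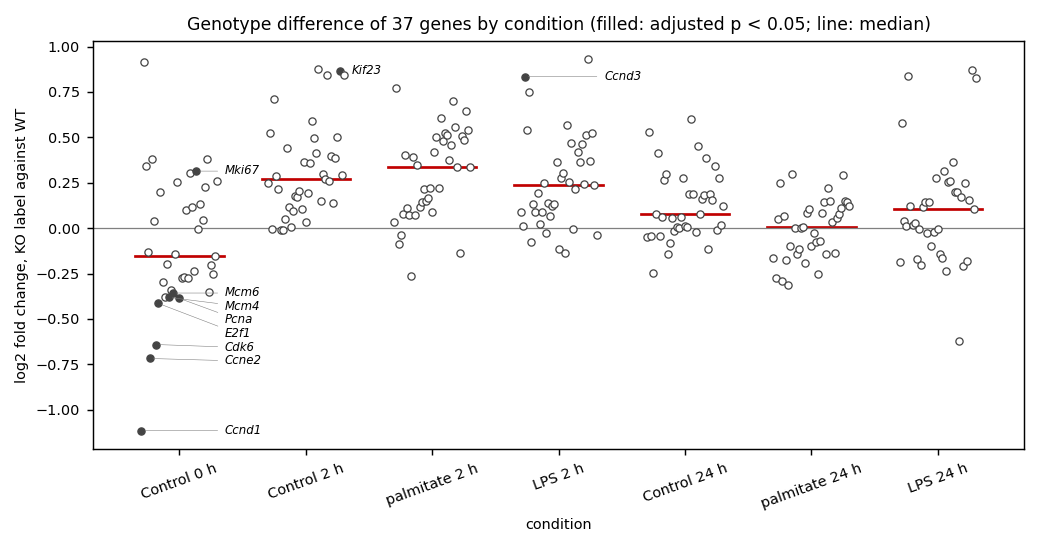
Log2 difference between KO and WT of each of the 37 members in each of the 7 conditions, with filled points for an adjusted p under 0.05 and a line at the median. Control 0h has a median of -0.15, and the medians at Control 2h and palmitate 2h are 0.27 and 0.34.

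Averaged over the 7 conditions, a contrast also added after seeing the data, KO was higher than WT in 12 members and lower in 0, where 6.03% of all genes tested were called higher and 5.33% lower. The median log2 difference of the members was 0.17, and 31 of 37 lay above 0, as did 5790 of all 11624 genes. On the mitosis list 6 of 11 were called and 11 of 11 lay above 0, and of 50 other mitosis genes 17 were called higher. At Control 0h the members as a whole went the other way, with a median of -0.15 and 22 of 37 below 0, as were 5798 of 11624 genes. The mitosis list did not, with a median of 0.043, 6 of 11 above 0 and 1 called, Mki67, which was higher. Over all libraries summed fibroblast markers were 0.380 to 60.1 CPM in WT and 1.16 to 314 in KO. Their part in the averaged differences was not tested. Averaged over the 7 conditions Mki67 differed by 0.25 (SE 0.040, adjusted p = 1.46e-05), Top2a by 0.24 (SE 0.048, adjusted p = 0.000552) and Kif23 by 0.44 (SE 0.092, adjusted p = 0.000924), and in every case single libraries of the labels overlapped within some condition. These SE and p values treat the libraries of all conditions as independent. Nothing states whether the conditions shared animals or cultures, in which case the values would be too small. Of the 12 calls 5 were kept in every fit without 1 library, and 7 were lost in some. The call was lost in 29 of 42 such fits for Birc5, 26 for Cdc45, 22 for Ccnd2 and 16 for Kif11. The count fell to 7 without WT palmitate 2h library 3. Library 2 of WT Control 2h and library 3 of WT palmitate 2h were the lowest of their groups for 31 and 22 of 37 members. Both labels held other such libraries. In WT, library 2 was lowest for 28 members in LPS 2h and 25 in LPS 24h. In KO, library 2 of palmitate 2h was lowest for 24 and library 3 of Control 2h for 22.

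Levels of different genes compare only per length. Per kilobase of exon and averaged over the 42 libraries, Pcna was the highest member at 77.7 CPM per kb, then Mcm6 at 26.6, and Ccnd2 the lowest at 0.655. Exons of Ccnd3, Cdk4, Cdk2, Ccne2, Rb1, Mcm7, Cdc45, Ccna2, Cdc20, E2f8 and Ccnd1 overlap a gene on the other strand. Their reads are uncertain where counting did not use strand. Exons of Mcm7 and Top2a overlap small RNA genes on their own strand, which a strand setting cannot separate.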

How the data were processed

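Total RNA of 42 BMDM libraries was sequenced after ribosomal depletion with a stranded kit. Per the submitters' processing notes, reads were handled with fastp 0.19.11 and STAR 2.7.3a, and the builds mm10 and mm9 are named. The authors deposited whole counts per gene, not normalized, and the annotation and strand setting of the counting are not given in the sources used here. Columns name a group but no replicate number.

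Group means were fitted over all 14 groups with edgeR 4.0.16 (limma 3.58.1, R 4.3.3): filterByExpr (11624 of 37310 genes), TMM normalization and quasi-likelihood F tests with Benjamini-Hochberg adjustment at 0.05, with the SE taken as the log2 change divided by the square root of F. The test was checked on simulated counts with 200 genes changed between WT LPS 24h and WT Control 24h. It recovered 60% of 1.5-fold, 80% of 2-fold and 98% of 4-fold rises and 78% of falls to a fold of 0.5. Of its calls 3.07% were false. Smaller changes, comparisons with fewer changed genes and changes in genes of the lowest counts were not simulated. A count of 0 called therefore does not show that members were unchanged. Alternatives were RLE size factors, no filter, only the libraries compared, DESeq2 1.42.0 and leaving out each library. Promoters came from RefSeq.

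The members and the lists were chosen with earlier results of these data known. Named genes are a set of members for each role plus, per comparison, those with the smallest p in each direction. Contrasts of genotype with time in the untreated cells, and the mean over 7 conditions, were added after seeing the data. Depth was 2848793 to 7743442 counts, and floors cover counting error only.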

Additional observations from a re-analysis of the deposited data

Results flagged for a closer look

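In the untreated cells the change over time differed between the labels for 5 members from 0 h to 2 h, by the edgeR test of the difference itself, a contrast chosen after seeing the data. The KO change exceeded the WT change by a log2 difference of 1.36 for Ccnd1 (adjusted p = 5.87e-05), 1.11 for Kif23 (adjusted p = 0.0104), 0.63 for Cdk6 (adjusted p = 0.0250), 0.56 for Mcm6 (adjusted p = 0.0114) and 0.42 for Pcna (adjusted p = 0.0180). Leaving out 1 library at a time kept the Ccnd1 call in 12 of 12 fits. The call was lost in 6 of 12 fits for Cdk6, in 3 for Pcna (KO Control 0h library 3, WT Control 2h library 2 or KO Control 2h library 3), in 2 for Mcm6 (KO Control 0h library 3 or WT Control 2h library 2) and in 1 for Kif23 (WT Control 2h library 2).

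From 0 h to 24 h the difference was 1.07 for Ccnd1 (adjusted p = 0.00435), 0.70 for Cdk6 (adjusted p = 0.0262) and 0.40 for Pcna (adjusted p = 0.0482) by the same edgeR test. The Ccnd1 call was lost without KO Control 0h library 3, which held 43.4 CPM of Ccnd1 against 57.1 and 84.9 in its group. The Cdk6 call was lost in 7 of 12 such fits and the Pcna call in 11 of 12. Both contrasts share the Control 0h libraries, in which summed fibroblast markers were 49.7, 43.1 and 70.7 CPM in KO and 0.905, 1.42 and 1.19 in WT. Their part in these differences was not tested.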

How the results depend on the processing

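No paired analysis was possible because the columns of the table carry group names without replicate numbers. Over 113 calls of a member in a comparison, 1628 alternative values were computed, of which 0 reversed, 1433 kept the call and 195 lost it. With all 25164 genes of at least 1 count, members called numbered 5 after LPS for 2 h in KO, 1 after palmitate for 24 h in KO, 2 for Control 24h against 0h, 4, 5 and 2 for KO against WT in Control 2h, palmitate 2h and LPS 2h, 1 for the difference between labels in the LPS 2h change and 8 for that from Control 0h to 2h. With only the libraries compared they numbered 1 after palmitate for 24 h in KO, 3 for Control 24h against 0h, 2, 5 and 0 for KO against WT in Control 2h, palmitate 2h and LPS 2h, and 8 and 5 for the differences between labels from Control 0h to 2h and to 24h. DESeq2 gave 1 after palmitate for 24 h in KO, 2 for Control 24h against 0h, 2 for KO against WT in Control 2h and 8 for the difference from Control 0h to 2h. Without 1 library at a time, counts ran from 32 to 35 after LPS for 24 h in each label, 4 to 8 (WT) and 2 to 3 (KO) after LPS for 2 h, 3 to 9 for Control 2h and 0 to 3 for Control 24h against 0h, 3 to 8, 0 to 6 and 1 to 1 for KO against WT in Control 0h, Control 2h and LPS 2h, 2 to 8 and 0 to 4 for the differences over time to 2h and 24h, and 7 to 13 for the mean of 7 conditions. The highest counts at Control 2h came without WT Control 2h library 3 (9 over time, 6 between labels, 8 after LPS in WT). The share of all genes called in each of these fits is not given here, so the counts do not show whether the members shifted more than other genes. The cause of these shifts was not tested. Depth limits members of few counts, such as Kif23, Ccnb2 and Cdc20 after LPS for 24 h.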
